A study of Mus musculus with 6 samples.

Results

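The remodelling of the extracellular matrix was followed through 10 genes, the matrix metalloproteinases (MMPs) Mmp2, Mmp3, Mmp9, Mmp11, Mmp14 and Mmp19 and the tissue inhibitors of metalloproteinases (TIMPs) Timp1, Timp2, Timp3 and Timp4. They were taken by name, each through the array row of that gene with the highest mean over all arrays, from rows annotated to a single gene. All 10 were found, in 11 rows, among 22180 named genes and 41345 rows. RNA was taken from epididymal white adipose tissue (eWAT, a visceral fat pad of male mice) and hybridised to 6 Affymetrix whole-transcript arrays. The WT group (3 arrays, WT 1 to WT 3) came from wild-type C57BL/6 males, and the Tg group (3 arrays, Tg 1 to Tg 3) from C57BL/6 males carrying a Blnc1 transgene described as adipose specific. All mice were 8 months old at sampling and on a high-fat diet (HFD) that lasted 21 weeks, so there is no lean group. The long noncoding RNA Blnc1 is known from thermogenic fat. Which promoter drives the transgene, and in how many lines, is not given in the sources used here, and the RNA of the transgene itself was not analysed here, so the genotype labels were not checked. Replicates are called biological in the labels, and each array was taken as 1 mouse. Wherever 3 values of a group are listed, they stand in the order of replicates 1, 2 and 3.

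MMPs are zinc-dependent proteases that cut collagens, gelatin, laminins and other matrix proteins. They are made as inactive precursors, and TIMPs block the active enzymes by binding in their catalytic cleft. In adipose tissue the balance of both is known to matter when the fat pad expands, because enlarging adipocytes are held in a collagen network and new vessels have to grow through it. The array measured RNA of the whole pad, so neither precursor activation nor enzyme activity was seen. In such bulk samples fewer cells of a type and less RNA per cell cannot be told apart.

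In the rows used, the 6 protease genes all had a lower mean in Tg than in WT. For Mmp9 this rested on WT 3 alone (difference 0.08 without it), and a second, dimmer Mmp11 row was higher in Tg (0.42). The 10 genes were chosen with earlier results of these data known. Of 16 other measured MMP genes, described below, 10 were lower and 6 higher. The inhibitors were split, with Timp1 and Timp2 lower and Timp3 and Timp4 higher. The groups were fully apart for Mmp2 and Mmp3, which were lower in Tg, and for Timp4, which was higher. Over the 10 genes, 8 had a difference below 0, against 52.8% of all rows, and the median difference was -0.21 (log2, Tg minus WT), against -0.01 over all rows. Groups did not overlap in 3 of the 10, against 16.7% of all rows and 23.8% of the named genes brighter than the median of all values, of which 53.7% had a difference below 0. None passed the threshold of an adjusted p of 0.05 in limma, and neither did any of the 41345 rows (0%). At an unadjusted p under 0.05, limma counted 4 of the 10 genes, 3 lower (Mmp2, Mmp3 and Mmp19) and 1 higher (Timp4), against 10.3% of all rows, 5.88% lower and 4.43% higher. These shares include dim rows, and the share among the brighter named genes was not taken at this p. With 3 arrays against 3, an exact permutation test of a single gene cannot give a 2-sided p below 0.1. All differences below are therefore described with their spread, and no gene is called changed.

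**Figure D1:**
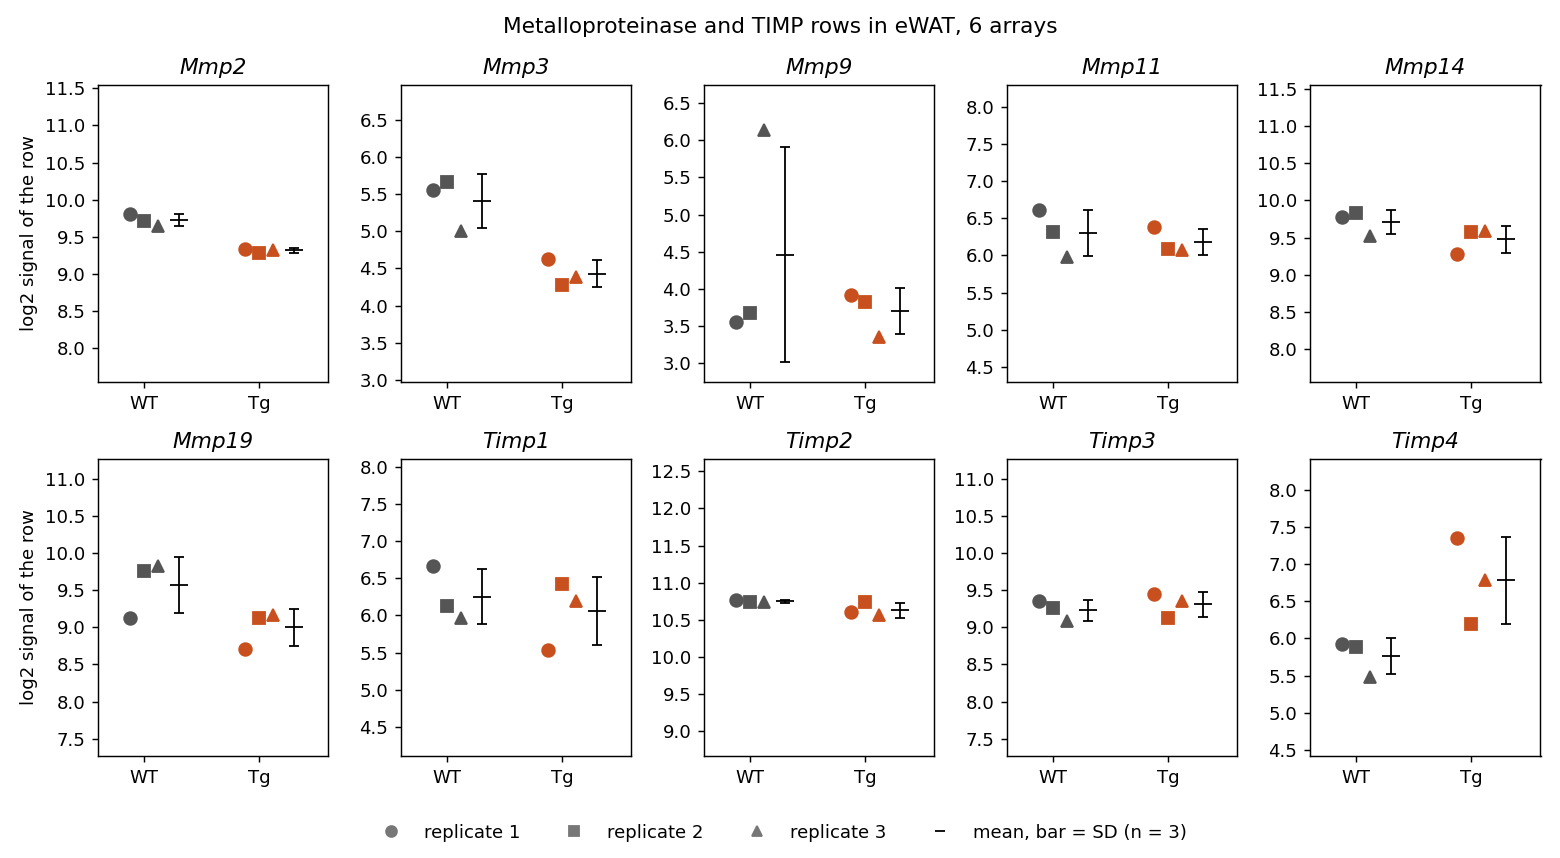
Log2 signal of each of the 10 genes on the 6 arrays (points, replicate number by symbol; bar, mean ± SD, n = 3), each panel spanning the same number of log2 units on its own level. The WT and Tg points are apart for Mmp2, Mmp3 and Timp4, and a single WT array, WT 3 at 6.14, sets the spread of Mmp9.

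Promoter sequence is shown for Mmp3 and Timp4, the genes with groups apart in opposite directions. RefSeq windows (GRCm38.p6, from 250 bases before the gene's start to 50 after it) were matched for 7 of the 10 genes; Mmp2, Mmp9 and Mmp19 had no entry. The 250 bases before the start are printed from 5′ to 3′ on the gene's strand, for Mmp3 at chr9:7445572-7445821 on the + strand and for Timp4 at chr6:115252206-115252455 on the - strand. Capitals mark matches to the motifs that were searched.
Mmp3: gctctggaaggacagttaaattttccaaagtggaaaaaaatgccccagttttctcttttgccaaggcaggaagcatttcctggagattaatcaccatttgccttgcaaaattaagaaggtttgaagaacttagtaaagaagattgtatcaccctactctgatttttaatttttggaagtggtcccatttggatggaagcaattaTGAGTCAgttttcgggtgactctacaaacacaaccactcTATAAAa
Timp4: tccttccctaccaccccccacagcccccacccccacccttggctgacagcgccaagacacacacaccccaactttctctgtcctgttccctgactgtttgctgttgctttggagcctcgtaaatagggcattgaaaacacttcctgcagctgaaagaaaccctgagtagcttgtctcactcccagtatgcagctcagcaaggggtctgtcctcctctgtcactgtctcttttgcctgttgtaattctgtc
Each motif was searched on both strands over the whole windows. For the AP-1 family of transcription factors, which is known to control several MMP genes, the letters were TGANTCA. The Mmp3 window held the only match among the 7 genes, TGAGTCA from position -46 counted from the annotated start, and 7.81% of all 32851 windows hold such a match. The Mmp3 window also held the only match to a TATA box (TATAAA), from position -7, and such a match is present in 13.6% of all windows. Both positions rest on the annotated start, and whether the matched letters work as promoter elements was not tested. The Timp4 window held none of the 4 motifs, which says only that these letters are not in it. A GC box (GGGCGG) stood in 5 of the 7 windows (Mmp11, Mmp14, Timp1, Timp2 and Timp3), against 35.7% of all windows. The core letters bound by EBF factors, the transcription factor family with which Blnc1 is known to work, were searched as CCCNNGGG. They stood in 2 of the 7 windows, Mmp11 (overlapping a GC box) and Mmp14, against 13.7% of all windows. G and C made up 37.6% of the 250 bases before the start in Mmp3 and 53.6% in Timp4.

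Among the gelatinases, which digest denatured collagen and basement membrane, Mmp2 had the tightest separation. Mmp2 read 9.81, 9.72 and 9.65 in WT and 9.34, 9.28 and 9.33 in Tg (log2 signal). Every Tg array lay below every WT array, with a gap of 0.32 between the groups and SDs of 0.08 and 0.03 within them. The difference was -0.41 ± 0.09 (SE; 95% interval -0.64 to -0.19), or 1.33-fold lower in Tg, with an adjusted p of 0.33 in limma. It lay between -0.45 and -0.37 with any single array left out.

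Mmp9, the second gelatinase, known from neutrophils and macrophages, was governed by a single array. It read 3.56, 3.68 and 6.14 in WT and 3.92, 3.83 and 3.35 in Tg. WT 3 stood 2.79 log2 units above the lowest array, and the other 5 arrays overlapped between the genotypes. The difference of -0.76 ± 0.68 (95% interval -2.39 to 0.87; limma adjusted p = 0.73) became 0.08 without WT 3. Several immune marker lists had their highest mean log2 signal in WT 3. The 8 measured T and NK cell markers had a mean of 5.96 there, against 3.79 to 5.37 in the other arrays. The 12 macrophage markers had 9.98, against 9.56 to 9.90, and the 9 B and plasma cell markers 6.10, against 4.87 to 6.00. Of the 12 neutrophil markers, most of which are dim (list mean 1.97 in WT 3 and 1.86 to 2.43 in the others), the brightest, Csf3r, was highest in WT 3, at 6.48 against 5.49 to 6.00. Other neutrophil markers went the other way. S100a8 was lowest in WT 3, at 2.12 against 3.44 to 3.92, and Cxcr2 read 2.98 there, below WT 1 (3.80) and WT 2 (3.49). The part of these cell types in the Mmp9 value was not tested.

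The stromelysins gave different results. Mmp3 (stromelysin-1), which cuts proteoglycans and laminin and can activate other pro-MMPs, read 5.56, 5.66 and 5.00 in WT and 4.63, 4.28 and 4.39 in Tg. Each Tg array lay below each WT array, by at least 0.36, with WT 3 the nearest of the WT arrays to the Tg group. The difference was -0.97 ± 0.20 (95% interval -1.46 to -0.49), or 1.97-fold lower in Tg, with an adjusted p of 0.33 in limma. It ranged from -1.18 to -0.85 with any single array left out.

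Mmp11 (stromelysin-3), which is cut by furin inside the cell and is known to act against fat accumulation in mice, overlapped between the groups. Its brighter row read 6.61, 6.32 and 5.98 in WT and 6.38, 6.09 and 6.08 in Tg, a difference of -0.12 ± 0.18 (limma adjusted p = 0.85). A second, dimmer Mmp11 row read 4.98, 4.24 and 4.63 in WT and 5.26, 5.24 and 4.60 in Tg, a difference of 0.42 ± 0.25 (limma adjusted p = 0.61). The 2 rows of Mmp11 thus pointed in opposite directions, and without WT 1 the brighter row gave 0.03. The interval of the brighter row, -0.56 to 0.32, leaves room for a change either way.

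Mmp14 is the membrane-bound collagenase that digests fibrillar collagen at the cell surface, and together with Timp2 it activates pro-MMP2. Mmp14 read 9.78, 9.83 and 9.52 in WT and 9.28, 9.58 and 9.59 in Tg. The groups overlapped because WT 3 lay below Tg 2 and Tg 3. The difference was -0.22 ± 0.14 (95% interval -0.56 to 0.11; limma adjusted p = 0.62), and -0.12 without Tg 1, the lowest array. All 3 genes of this activation step, Mmp14, Timp2 and Mmp2, thus had differences below 0, but the groups were apart only for Mmp2.

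Mmp19, a protease of basement membrane proteins that is expressed by macrophages among other cells, read 9.13, 9.76 and 9.82 in WT and 8.71, 9.13 and 9.16 in Tg. WT 2 and WT 3 lay above all Tg arrays, and WT 1 was level with Tg 2 and Tg 3. The difference was -0.57 ± 0.22 (95% interval -1.11 to -0.03; 1.48-fold lower in Tg; limma adjusted p = 0.47). It ranged from -0.79 without WT 1 to -0.42 without Tg 1.

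Of the inhibitors, Timp4, the TIMP known for its expression in heart and adipose tissue, had the largest difference among the 10 genes. Timp4 read 5.92, 5.88 and 5.48 in WT and 7.35, 6.20 and 6.79 in Tg. Each Tg array lay above each WT array, with a gap of 0.28, and Tg 1 was the highest and Tg 2 the lowest of its group. The difference was 1.02 ± 0.30 (95% interval 0.31 to 1.73), or 2.03-fold higher in Tg, with an adjusted p of 0.37 in limma. It ranged from 0.73 without Tg 1 to 1.31 without Tg 2.

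Timp1, the inducible TIMP of inflamed and fibrotic tissue, varied within both groups by more than it differed between them. It read 6.67, 6.13 and 5.96 in WT and 5.54, 6.42 and 6.20 in Tg, with WT 1 the highest and Tg 1 the lowest array. The difference of -0.20 ± 0.28 (95% interval -0.87 to 0.48; limma adjusted p = 0.84) became 0.06 without Tg 1 and 0.01 without WT 1.

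Timp2, the constitutive inhibitor, was the steadiest of the 10 genes over the 6 arrays, with a range of 0.22. It read 10.77, 10.74 and 10.74 in WT and 10.60, 10.74 and 10.56 in Tg, where Tg 2 was level with WT and the other Tg arrays lay lower. The difference was -0.12 ± 0.10 (95% interval -0.35 to 0.11; limma adjusted p = 0.70). Timp3, the matrix-bound TIMP that also inhibits the tumour necrosis factor sheddase ADAM17, read 9.35, 9.26 and 9.08 in WT and 9.45, 9.13 and 9.36 in Tg. The Timp3 groups overlapped, and the difference was 0.08 ± 0.13 (95% interval -0.23 to 0.40; limma adjusted p = 0.85). It was 0.01 without Tg 1 or without WT 3 and 0.18 without Tg 2.

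Several TIMP genes lie inside synapsin genes, and the host of Timp4 was read together with it. In the RefSeq table Timp1 overlaps Syn1, Timp3 overlaps Syn3 and Timp4 overlaps Syn2, while Timp2 overlaps Cep295nl and Mmp19 overlaps Tmem198b. Syn2 read 3.93, 3.90 and 3.60 in WT and 4.46, 3.99 and 4.50 in Tg. All Tg arrays of Syn2 lay above all WT arrays, and the difference was 0.51 ± 0.17 (limma adjusted p = 0.42). Syn1 (-0.32 ± 0.14) and Syn3 (0.25 ± 0.24) overlapped between the groups. Cep295nl read 4.11, 4.01 and 3.98 in WT and 3.78, 3.24 and 3.52 in Tg. Its groups were apart, and its difference of -0.52 ± 0.15 (limma adjusted p = 0.37) was larger than that of Timp2. Tmem198b (-0.15 ± 0.13) overlapped between the groups. The strand of the probes was not checked, so signal of these 5 MMP and TIMP genes and of the genes that overlap them cannot be separated here.

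The samples differed in cell type markers and in tissue that came along with the fat pad. Beside the marker counts below, groups were apart in 16.7% of all rows and in 23.8% of the named genes brighter than the median. A difference below 0 was present in 52.8% of all rows and in 53.7% of those brighter genes. White adipocyte markers, which check the labelled tissue, were measured for 11 of 12 genes and were high in all arrays, with a mean log2 signal of 9.92 to 10.21 in WT and 10.23 to 10.54 in Tg; all 11 were higher in Tg, 6 with groups apart. Macrophage markers were lower in Tg in 12 of 12 genes, 10 with groups apart, with array means of 9.80 to 9.98 in WT and 9.56 to 9.60 in Tg. Mast cell markers were lower in 10 of 10 genes, 8 with groups apart, with array means of 5.42 to 6.42 in WT and 4.65 to 5.07 in Tg. Endothelial markers were higher in 10 of 10 genes, 3 with groups apart, with overlapping array means of 7.36 to 7.95 in WT and 7.89 to 8.16 in Tg. B and plasma cell markers were lower in 9 of 9 genes, 1 with groups apart, with overlapping means of 5.37 to 6.10 in WT and 4.87 to 5.90 in Tg. T and NK cell markers were lower in 8 of 8 genes, 0 with groups apart, with overlapping means of 3.89 to 5.96 in WT and 3.79 to 4.61 in Tg. Neutrophil markers were lower in 8 of 12 genes and smooth muscle and pericyte markers in 6 of 10, while mesothelium markers were higher in 7 of 10. Groups were apart for 3 neutrophil markers, all lower. They were apart for 2 smooth muscle and pericyte markers downward and 1 upward, and for 0 mesothelium markers. Fibroblast and progenitor markers, from cells known to make Mmp2, Mmp3 and Mmp14, had array means of 8.58 to 8.66 in WT and 8.54 to 8.68 in Tg, with 4 of 11 higher. Of these 11, groups were apart for 1 upward and 2 downward. These marker lists were written without any of the 10 MMP and TIMP genes. The part of cell composition in the differences of Mmp2, Mmp3 and Timp4 was not tested.

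Transcripts of the male reproductive tract were present in 3 arrays. Over 21 measured epididymis and tract genes the mean log2 signal was 4.42 in Tg 2, 1.70 in WT 2, 1.79 in WT 3 and 1.14 to 1.31 in the other 3. In Tg 2 it came from genes such as Lcn9 (9.87) and Adam7 (8.67), and in WT 2 and WT 3 from Spink8 (6.55 and 8.09) and Defb42 (4.37 and 5.67). Defb42 was shared with Tg 2, where it read 5.64, while Spink8 read 2.53 there. WT 2 and WT 3 were also the highest in the smooth muscle gene Cnn1, at 7.09 and 8.46, against 4.07 to 4.77 in the other 4 arrays. The same held for Myh11, at 8.39 and 9.52 against 7.09 to 7.61, and for Des, at 6.98 and 7.47 against 6.45 to 6.80. The remaining smooth muscle and pericyte markers did not all follow this pattern. Acta2 was highest in Tg 1 (10.81), and Rgs5 (9.69) and Notch3 (5.15) were lowest in WT 3. The 10 markers of that list had array means of 7.25, 7.41 and 7.63 in WT and 7.26, 6.99 and 6.98 in Tg. Each difference was therefore taken again within the arrays of low and of high tract signal, a choice made after seeing the data.

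In WT 1, Tg 1 and Tg 3, which had low tract signal, the differences were -0.48 for Mmp2, -1.05 for Mmp3 and 1.15 for Timp4. In WT 2, WT 3 and Tg 2 they were -0.40, -1.06 and 0.52. The Timp4 value was the smaller one where Tg 2 was the only Tg array. Timp1 changed sign, from -0.80 in the first set to 0.38 in the second, Mmp9 from 0.07 to -1.08 and Timp3 from 0.06 to -0.04, while Mmp19 went from -0.19 to -0.66. Each set has a single array in 1 genotype, which limma assumes to vary like the others, and no gene passed in either set. Since the second set also joins arrays with partly different tract genes, the part of tract tissue in the differences cannot be judged from these values.

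**Figure D2:**
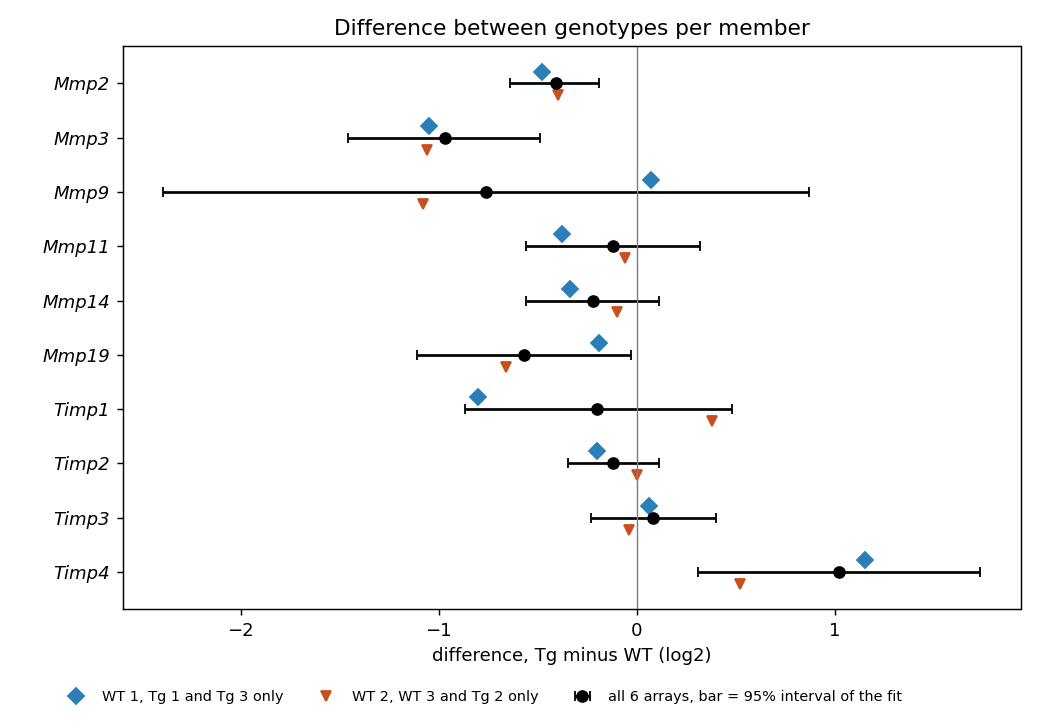
Difference between genotypes (Tg minus WT, log2) for each of the 10 genes, over all 6 arrays (black, bar = 95% interval of the limma fit) and within the 3 arrays of low (diamonds) and of high (triangles) reproductive tract signal. The values of the 2 sets are -0.48 and -0.40 for Mmp2 and -1.05 and -1.06 for Mmp3, and for Timp1 (-0.80 and 0.38) they lie on opposite sides of 0; each set has a single array in 1 genotype, so it shows no spread there.

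Mmp3 stands in a run of 10 neighbouring Mmp genes on chromosome 9 in the RefSeq table, in the order Mmp13, Mmp12, Mmp1b, Mmp3, Mmp1a, Mmp10, Mmp8, Mmp27, Mmp20 and Mmp7. All 10 were measured, and 5 had differences below 0 (Mmp13, Mmp12, Mmp3, Mmp27 and the dim Mmp8), against 52.8% of all rows. This count and the next one include 5 dim genes, named below. Outside those, only Mmp7 was higher in Tg (1.32 ± 1.02). Groups were apart in 2, against 16.7% of all rows. Mmp13, a collagenase, read 5.47, 5.63 and 5.54 in WT and 4.07, 5.09 and 5.04 in Tg. As for Mmp3, each Tg array of Mmp13 lay below each WT array, with a difference of -0.81 ± 0.28 (limma adjusted p = 0.42). Mmp12, the macrophage elastase, read 10.81 to 11.00 in WT and 10.37 to 10.86 in Tg, a difference of -0.25 ± 0.15. Mmp27 read 4.61 to 5.05 in WT and 3.67 to 4.73 in Tg (-0.64 ± 0.28), with overlapping groups. Mmp7 had the widest scatter, from 2.05 to 5.73 in WT and from 3.57 to 5.55 in Tg. The other genes of the run, Mmp1a, Mmp1b, Mmp8, Mmp10 and Mmp20, read below 2 on the log2 scale in every array, under the array medians of all rows (2.64 to 2.75), so no difference between genotypes could be read from them.

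**Figure D3:**
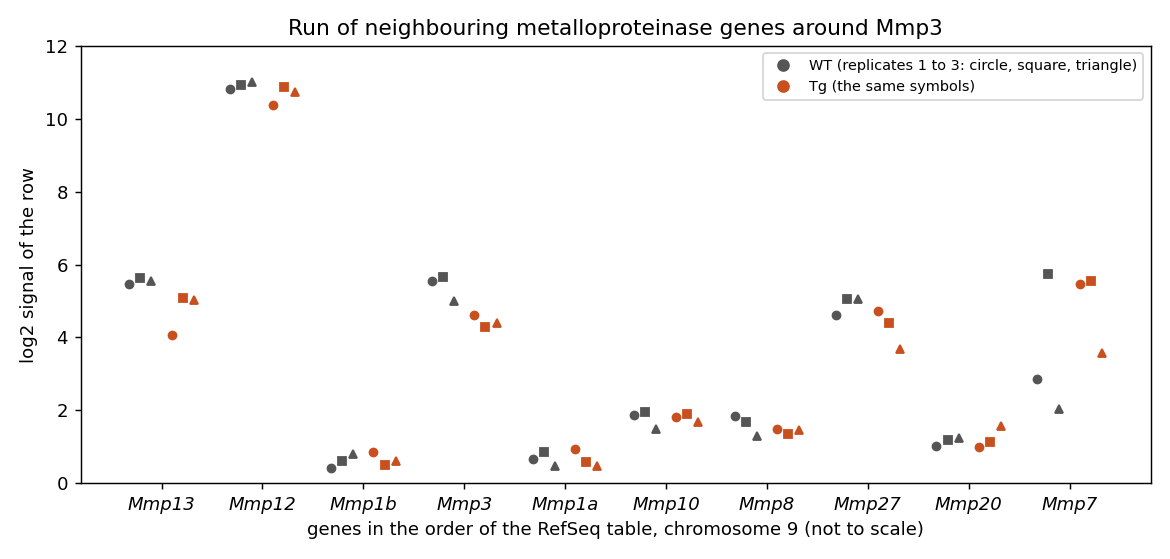
Log2 signal on the 6 arrays (grey, WT; orange, Tg; symbol, replicate) for the run of 10 Mmp genes on chromosome 9, in gene order and not to scale. Groups are apart for Mmp3 and Mmp13 alone, and 5 genes read below 2 in every array.

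The other proteases of the family were compared in the same fit. Of 17 further MMP genes 16 were measured, 10 lower and 6 higher in Tg, with a median difference of -0.07. These counts include the dim genes Mmp1a, Mmp1b, Mmp8, Mmp10 and Mmp20 of the run above. Mmp16, Mmp21 and Mmp24 also read below the array medians on every array, so the direction count and the median rest in good part on dim rows. Groups were apart in 2, Mmp13 downward and Mmp28 (epilysin) upward. Mmp28 read 5.86, 5.34 and 5.24 in WT and 6.59, 6.02 and 6.40 in Tg, a difference of 0.86 ± 0.22 (limma adjusted p = 0.35). Among 22 measured ADAM and ADAMTS genes, the related disintegrin-bearing metalloproteinases, 15 were higher and 7 lower, with a median of 0.08. Groups were apart for Adamts16 (1.35 ± 0.34) and the aggrecanase gene Adamts5 (0.40 ± 0.16) upward, and for Adamts15 (-0.59 ± 0.14) and the leukocyte gene Adam8 (-0.43 ± 0.13) downward. In both lists 0 genes passed the adjusted threshold in limma, and 2 and 5 had an unadjusted p under 0.05. Over all rows 10.3% had such a p in limma, 16.7% had groups apart and 52.8% had a difference below 0.

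Genes that activate, bind or clear MMPs were split. Of 22 measured, 12 were lower and 10 higher, with a median of -0.04, against 52.8% of all rows below 0 and a median of -0.01. Groups were apart in 8 of the 22, against 16.7% of all rows and 23.8% of the named genes brighter than the median. Lower in Tg were Cd44, the hyaluronan receptor that docks MMP9 at the cell surface (-0.72 ± 0.16), Lrp1, the endocytic receptor that clears MMPs and TIMPs (-0.36 ± 0.09), the procollagen processing enhancer gene Pcolce (-0.39 ± 0.13) and the integrin gene Itgav (-0.27 ± 0.10), and also Plau, the urokinase gene (-0.20 ± 0.11), whose nearest WT and Tg arrays both read 9.23 at 2 decimals. Higher were Thbs1, thrombospondin 1 (0.52 ± 0.19), the proprotein convertase gene Pcsk6 (0.44 ± 0.18) and Bsg, the MMP inducer basigin (0.14 ± 0.10). Furin, the convertase that activates MMP14 and MMP11, differed by -0.02 ± 0.10, and Reck, a membrane-anchored MMP inhibitor, by 0.04 ± 0.17, both by less than the SE. In this list limma passed 0 genes, with 6 at an unadjusted p under 0.05, against 10.3% of all rows.

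Of 31 measured genes of collagens and other matrix proteins, the substrates of these enzymes, 25 had a higher mean in Tg and 6 a lower one, with a median difference of 0.14. Over all rows 52.8% had a difference below 0, and the median was -0.01. Groups were apart upward for Sparc (0.34 ± 0.11), Col12a1 (0.78 ± 0.27), the basement membrane gene Nid2 (0.34 ± 0.12) and Col6a1 (0.24 ± 0.14; the nearest WT and Tg arrays both read 10.08), and downward for Lama2 (-0.19 ± 0.11) and Dcn (-0.11 ± 0.09). The list means of the arrays overlapped, at 8.28 to 8.70 in WT and 8.61 to 8.71 in Tg, with WT 1 level with the Tg arrays. Of 15 measured genes of collagen crosslinking and processing 9 were higher, with a median of 0.16. Groups were apart upward for Pcolce2 (0.57 ± 0.13), the collagen chaperone gene Serpinh1 (0.30 ± 0.11) and the lysyl oxidase gene Lox (0.43 ± 0.19), and downward for Ctsk, a collagen-cutting lysosomal protease (-0.61 ± 0.16), and P4ha1 (-0.21 ± 0.09). In both lists limma passed 0 genes, with 3 and 3 at an unadjusted p under 0.05, against 10.3% of all rows. Groups were apart in 16.7% of all rows and in 23.8% of the named genes brighter than the median.

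Among 16 measured genes of cytokines and transcription factors known to induce MMPs, 10 were lower and 6 higher, with a median of -0.10. Groups were apart in 3, the cytokine genes Il1b (-0.63 ± 0.16), Il1a (-0.30 ± 0.09) and Osm (-0.39 ± 0.12), all lower in Tg; Il1a and Osm read below the medians of all rows. The AP-1 genes Jun (-0.16 ± 0.14), Fos (-0.20 ± 0.17), Junb (-0.10 ± 0.15) and Fosl2 (0.03 ± 0.10) overlapped between the groups, as did Tgfb1 (0.03 ± 0.14). In limma 0 of the 16 passed, with 3 at an unadjusted p under 0.05. The shares over all rows were 10.3% at such a p, 16.7% with groups apart and 52.8% with a difference below 0.

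**Figure D4:**
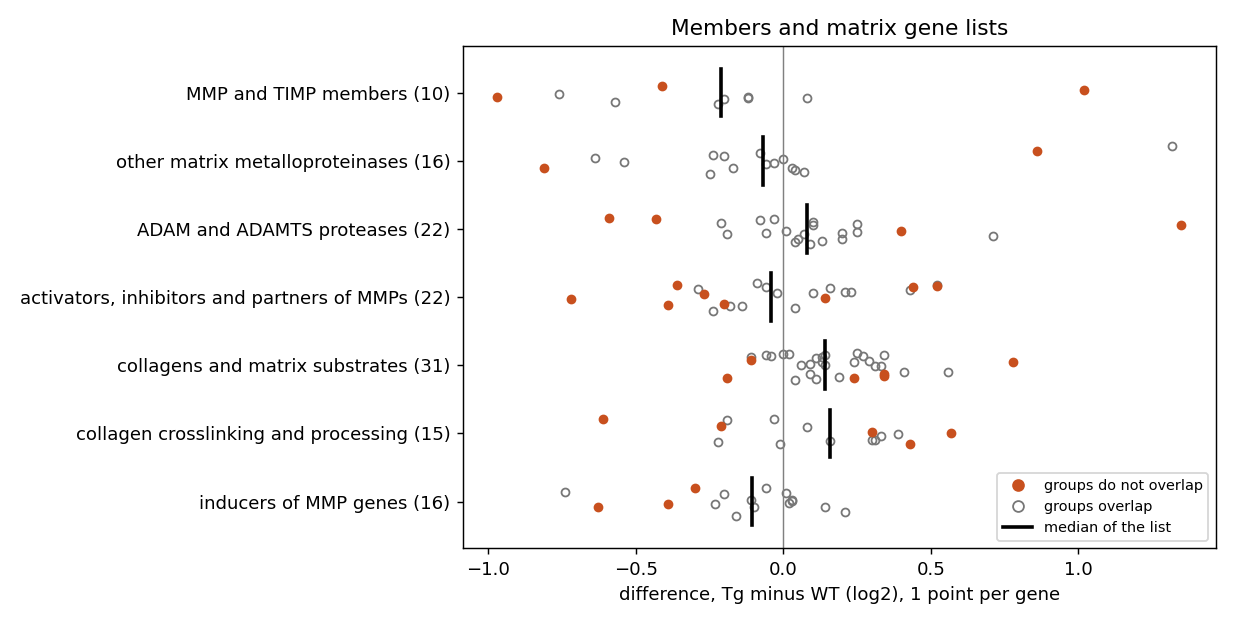
Difference between genotypes (Tg minus WT, log2) of the 10 genes and of 6 lists of related genes, 1 point per gene, filled where WT and Tg arrays do not overlap; the vertical bars are list medians. The medians run from -0.21 for the MMP and TIMP genes to 0.16 for collagen crosslinking and processing.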

How the data were processed

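The deposited table holds log2 signal per row for each of 6 arrays, which the authors made with RMA, per the submitters' processing notes, which also name limma; its version, settings, filters and genome build are not given in the sources used here. Array medians were 2.68 to 2.75 in WT and 2.64 to 2.67 in Tg, so each Tg median lay below each WT median. RMA compresses differences between dim values, and precision is limited by 3 arrays per group. Rows were named through the platform annotation: 23521 rows had 1 gene, 1814 several and 16010 none. Tg was compared with WT on the log2 values with limma 3.58.1 in R 4.3.3 (lmFit, eBayes, 2-sided), adjusted by Benjamini-Hochberg over all 41345 rows, without a filter or covariate, and the procedure was tested on simulated data. The 10 genes and all lists were chosen with earlier results of these data known, so no test was made over a list. Beside the 10 genes, up to 4 genes per list and direction with groups apart and the smallest p were named by rule; the cluster neighbours, synapsin, marker and overlapping regulator genes were added for context, some after their values were seen. Alternatives left out each array, added the replicate number as a block, rescaled the arrays, filtered rows, and changed the variance model, the array weights and the row summary.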

Additional observations from a re-analysis of the deposited data

How the results depend on the processing

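Under 15 alternatives fixed at the start, limma passed 0 of the 10 genes and 0 rows, as it did at an adjusted p of 0.1. With the replicate number as a block (replicate block), 0 genes passed, 3 had groups apart and 8 were lower, so no call changed; deviations of same-numbered arrays correlated at -0.04, 0.01 and -0.04 over all rows, so the numbers were not taken to pair the mice. The number of genes with groups apart was 3 to 5 with single arrays left out (5 without Tg 2), where 25.3% to 31.2% of all rows were apart (27.6% without Tg 2). It was 8 in the 3 arrays of low tract signal and 5 in those of high tract signal, where 67.7% and 72.4% of all rows were apart because fewer arrays were compared. Mmp2, Mmp3, Mmp14, Mmp19, Timp2, Timp3 and Timp4 kept their sign in all 15. With single arrays left out, the differences of Mmp9 ran from -1.21 to 0.08, of Mmp11 from -0.28 to 0.03 and of Timp1 from -0.38 to 0.06. Reversed were Mmp9 without WT 3 (0.08) and in the arrays of low tract signal (0.07), Mmp11 without WT 1 (0.03) and with its rows averaged (0.15), and Timp1 without Tg 1 (0.06) and without WT 1 (0.01). In the arrays of high tract signal Timp1 (0.38) and Timp3 (-0.04) also reversed. The cause was not tested. Each of the 3 rescalings (median centring, quantile, cyclic loess) left 8 genes lower in Tg, although rows at an unadjusted p under 0.05 went from 1831 higher and 2432 lower to 2892 and 1580 with median centring. Median centring, which removes the lower medians of the Tg arrays, moved Timp2 from -0.12 to -0.05 and Mmp11 from -0.12 to -0.06.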

Other observations

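The genes whose pattern over the 6 arrays was nearest to that of 3 of the described genes, those with the widest range, were listed as a description, by the root mean square difference of row-centred log2 values among 12755 genes brighter than the median. Nearest to Timp4 were Bpifb6 (0.10), the transporter gene Slc6a13 (0.12) and Ugt3a2 (0.15). Slc6a13 read 6.97, 6.85 and 6.33 in WT and 8.03, 7.15 and 7.65 in Tg, so that Tg 1 was the highest and WT 3 the lowest array, as for Timp4. Nearest to Mmp3 were the channel gene Panx1 (0.16), the protease gene Ctse (0.16) and the chemokine receptor gene Ccr3 (0.20). Ctse read 5.75, 5.84 and 5.15 in WT and 5.06, 4.68 and 4.33 in Tg. Nearest to Mmp9 were Gm1965 (0.33), the interferon-induced GTPase gene Igtp (0.34) and the T cell receptor segment Trbv13-2 (0.36), all highest in WT 3. With 6 arrays and many genes searched, some close matches arise in any case.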
